A study of Homo sapiens with 6 samples.

Results

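A set of 10 genes of the JAK/STAT3 pathway was followed in SW872 cells, an established human liposarcoma cell line, after Apatinib treatment. The genes were the receptor chains OSMR and IL6ST, the kinases JAK1, JAK2 and TYK2, the transcription factors STAT3 and STAT6, and the inhibitors SOCS1, SOCS2 and SOCS3. They were taken by their symbols from the count table, and 10 of its 57773 genes matched. RNA was sequenced from 3 libraries of SW872 cells given 18 μM Apatinib for 24 h and from 3 libraries of untreated SW872 cells, which served as the control. Apatinib is an anti-angiogenic drug that blocks the VEGF receptor KDR. Both groups came from this 1 cell line, and no vehicle is named for the control. The question was whether the mRNA of the pathway differed between the groups. The phosphorylation that switches JAK and STAT proteins on, and the amount of protein, were not measured by these libraries.

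Cytokines of the interleukin-6 family bind receptor complexes that share the chain encoded by IL6ST. JAK kinases attached to these chains then phosphorylate STAT proteins, which enter the nucleus and switch on their target genes. The SOCS genes are among these targets, and their proteins hold the pathway back, so that SOCS mRNA is often read as a trace of cytokine signalling.

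The total counts of the libraries ranged from 17043314 to 22067558. The cells expressed all 7 mesenchymal markers listed, with a summed level of 5164 to 6095 CPM (counts scaled to a common library size) with Apatinib and 4308 to 4456 without it. Of 6 adipocyte markers 3 passed the filter on low counts, and FABP4 and ADIPOQ, which define fat cells, were at 0 in every library. The blood cell marker PTPRC was at 0 in every library, and the epithelial marker EPCAM had at most 7 counts, while the keratin KRT18 lay between 61.6 and 87.7 CPM. CD68, on the blood cell list, had at most 1 count per library but 6.78 to 11.8 FPKM with Apatinib and 1.79 to 3.30 FPKM in the untreated libraries, so that the deposited counts and FPKM values disagree for this gene. Summed levels with Apatinib and in the control were 65.6 to 89.4 and 61.4 to 63.0 CPM for adipocyte, 75.2 to 91.1 and 64.7 to 74.1 for epithelial, 2.75 to 4.01 and 4.5 to 5.44 for blood cell, and 2.71 to 4.41 and 2.86 to 3.99 for endothelial markers. The sums hide 4 single markers that passed the test. COL3A1 of the mesenchymal list rose (log2 fold change 1.18, edgeR FDR = 0.00955), LPL of the adipocyte list rose (0.84, FDR = 0.0237), VWF of the endothelial list rose (1.52, FDR = 0.0386) and CDH5 of the same list fell (-1.22, FDR = 0.0242). Their part in the results below was not tested.

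The control libraries were unequally alike. Controls 1 and 2 differed by a mean chi-square of 2.27 per gene, where sampling noise gives 1, and the other pairs within a group differed by 18.2 to 44.5. The labels give them as separate samples. If they are not, an n of 3 and the control SD overstate the precision of every comparison here. The libraries also differed in the counts of AT-rich genes relative to GC-rich genes. Each gene was set against its own mean log2 CPM over the 6 libraries, and the trend with GC content was fitted. Genes of low GC content then stood above those of high GC content by 0.45 and 0.43 in controls 1 and 2. The value was -0.10 in control 3, and -0.56, -0.16 and -0.06 in Apatinib replicates 1 to 3. An effect of Apatinib on such genes and a difference between libraries cannot be told apart here. The offset for GC content used below can take out either.

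The DNA just upstream of the genes was searched for the palindrome that STAT dimers bind, in windows from 250 bases before to 50 bases after each RefSeq transcript start (GRCh38.p14). Such windows were at hand for 9 of the 10 genes, 15 windows in all, and SOCS2 had none. The motif with a spacer of 3 bases, TTCNNNGAA, which reads the same on both strands, was in 0 of the 15 windows and in 7.66% of the 35116 windows of all genes. The shorter motif TTCNNGAA, also its own reverse complement, was in 3 of the 15 windows and in 7.74% of all windows. The 3 windows belonged to JAK1, STAT3 and SOCS3, and the motif is shown in capitals with its flanks, 5′ to 3′ along the minus strand. In JAK1 it began 225 bases before the start (chr1:64966737-64966799), in STAT3 131 bases (chr17:42388536-42388603) and in SOCS3 215 bases (chr17:78361103-78361170).
JAK1: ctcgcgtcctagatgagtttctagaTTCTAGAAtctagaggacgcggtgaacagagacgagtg
STAT3: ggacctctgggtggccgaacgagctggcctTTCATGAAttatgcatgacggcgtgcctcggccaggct
SOCS3: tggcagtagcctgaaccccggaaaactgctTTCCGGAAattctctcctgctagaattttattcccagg
These are matches of letters in the reference, and binding of STAT3 was not measured. Spacers longer than 3 bases were not searched, and some windows of JAK2 overlap each other.

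In the untreated cells the receptor chains were the most abundant of the 10 transcripts. Per transcript length (FPKM, fragments scaled to transcript length and library size), the control level was 166 ± 7.35 (SD, n = 3) for OSMR and 84.6 ± 29.6 for IL6ST. STAT3 at 33.6 ± 2.30 and JAK1 at 29.2 ± 1.08 followed. TYK2 at 20.6 ± 1.96 and STAT6 at 18.8 ± 1.15 came next, and this was the single neighbouring pair whose control libraries overlapped. The inhibitors were lower, with 14.8 ± 1.49 for SOCS2, 10.3 ± 0.774 for SOCS3 and 7.64 ± 0.915 for SOCS1. JAK2 was the lowest at 5.97 ± 1.21.

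With Apatinib the order of these levels was nearly kept. OSMR stood at 168 ± 53.8 FPKM (n = 3), IL6ST at 65.1 ± 30.9, STAT3 at 38.4 ± 6.80 and JAK1 at 27.7 ± 1.32. STAT6 had 21.5 ± 1.14, TYK2 21.1 ± 0.893 and SOCS2 21.1 ± 4.21, and neighbours among these 3 overlapped. SOCS3 had 15.5 ± 4.82, which overlapped SOCS2, SOCS1 had 8.60 ± 1.17 and JAK2 4.8 ± 1.14. IL6ST and STAT3 overlapped as well, since IL6ST varied widely among the Apatinib libraries.

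**Figure D1:**
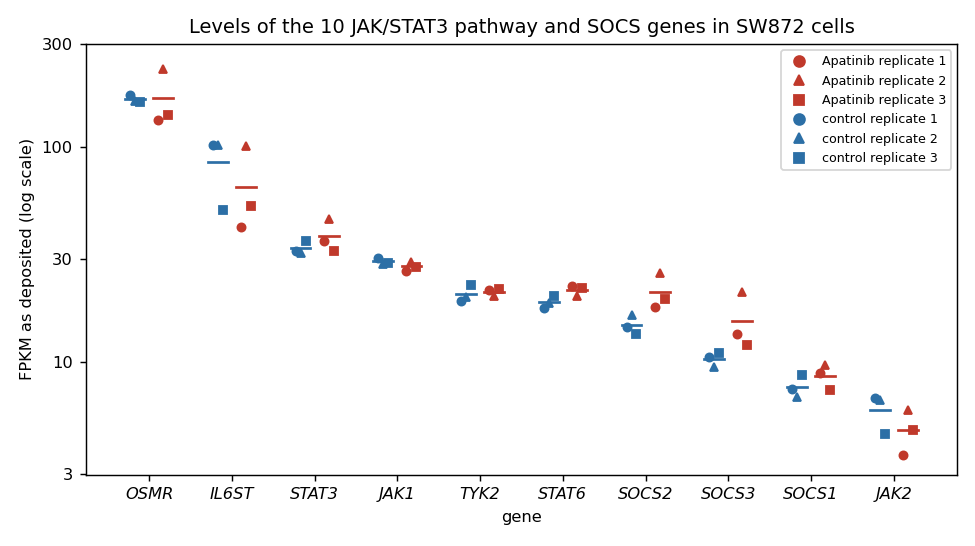
Levels of the 10 genes in FPKM on a log axis, with 1 point per library and the mean of each group of 3. The receptor chain OSMR is highest and JAK2 lowest in both groups, and the points of SOCS2 and SOCS3 with Apatinib lie above those of the control.

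In the comparison of the groups, 1 of the 10 genes passed the test, and it was SOCS2, which rose 1.42-fold with Apatinib. SOCS3 had a fold of 1.47 and just missed the threshold. The 8 others, STAT3 and all 3 kinases included, did not pass. A gene was called when edgeR's quasi-likelihood test gave an FDR under 0.05 and its log2FC, the log2 ratio of Apatinib to control, exceeded 0.5 in size. By these limits 11.5% of the 16290 genes tested were called, 5.97% as higher and 5.48% as lower with Apatinib. The FDR limit alone was met by 12.9% of genes and, among the 10, by SOCS2. All 10 passed the filter on low counts. Their log2FC values ranged from -0.39 to 0.56 with a median of 0.09, and the median of all genes tested was 0.00. The Apatinib and control libraries did not overlap for 3 of the 10 genes, against 33.2% of all genes. SOCS2 and SOCS3 lay above the control (17.5% of all genes) and JAK1 below it (15.7%). In bulk RNA, fewer cells that express a gene and less of its RNA per cell cannot be told apart.

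**Figure D2:**
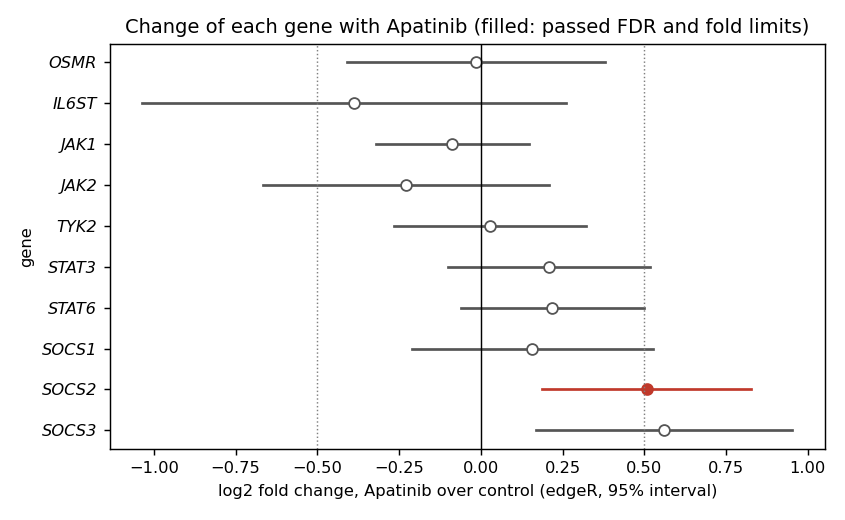
Log2FC of each of the 10 genes, Apatinib minus control, with its 95% interval from edgeR. The intervals of SOCS2 and SOCS3 lie above 0, and the other 8 cross it.

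OSMR, the receptor chain that binds oncostatin M, was counted at 1023, 1659 and 1015 CPM in Apatinib replicates 1 to 3 and at 1262, 1227 and 1248 in the controls. Apatinib 2 was far above every control and the other two Apatinib libraries were below them, so that the groups overlapped. Its log2FC was -0.02 (95% interval -0.41 to 0.38, edgeR FDR = 0.963). It was -0.28 without Apatinib 2 (edgeR FDR = 0.0819), 0.11 without Apatinib 1 or 3, and between -0.03 and -0.01 without any single control.

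IL6ST encodes gp130, the signal-transducing chain of the family. It had 442, 1009 and 544 CPM with Apatinib and 1018, 1041 and 550.5 in the controls. The libraries fell into a high and a low level that did not follow treatment, with Apatinib 2 beside controls 1 and 2, and control 3 beside Apatinib 1 and 3. The log2FC of -0.39 had an interval from -1.04 to 0.26 (edgeR FDR = 0.407). It was -0.81 without Apatinib 2 (edgeR FDR = 0.0589), -0.63 without control 3, between -0.27 and -0.16 without any other single library, and 0.02 when each library's dependence on GC content was taken as an offset. At 36.6%, the GC content of IL6ST was the lowest of the 10.

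JAK1 couples to gp130 and most other cytokine receptors. Its 195, 196 and 195 CPM with Apatinib all lay below the 207, 205 and 210.0 CPM of the controls. The step was small, with a log2FC of -0.09 (interval -0.32 to 0.15), and did not pass the test (edgeR FDR = 0.625).

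JAK2, the kinase of the erythropoietin and growth hormone receptors, had 27.2, 42.7 and 32.1 CPM with Apatinib and 45.9, 44.3 and 29.5 in the controls. As for IL6ST, Apatinib 2 and controls 1 and 2 were high and control 3 was low. Its log2FC was -0.23 (interval -0.67 to 0.21, edgeR FDR = 0.473), and 0.08 with the GC content offset. It was -0.09 without Apatinib 1, -0.42 without Apatinib 2, -0.41 without control 3 and between -0.18 and -0.12 without any other single library.

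TYK2, which serves interferon and interleukin-12 receptors, had 117, 94.8 and 104 CPM with Apatinib against 91.7, 101 and 117. The groups covered nearly the same range. Its log2FC was 0.03 (interval -0.26 to 0.32, edgeR FDR = 0.912). It was -0.05 without Apatinib 1, -0.06 without control 1 and between 0.01 and 0.13 without any other single library. With controls 1 and 2 summed it was -0.02, and with the GC content offset -0.16.

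STAT3 is the main transcription factor downstream of gp130. Its libraries had 252, 298 and 215 CPM with Apatinib and 207, 209.6 and 245 CPM in the untreated libraries. Apatinib 1 and 2 stood above all controls, and Apatinib 3 lay between control 2 and control 3. The mean of 255 ± 41.5 CPM (n = 3) against 221 ± 21.1 gave a log2FC of 0.21 (SE 0.141, interval -0.10 to 0.52), which did not pass the test (edgeR FDR = 0.345). The interval leaves room for a fold of 0.933 to 1.43. Leaving out single libraries gave values from 0.09 (without Apatinib 2) to 0.32 (without Apatinib 3).

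STAT6, the factor that answers interleukin-4 and interleukin-13, had 120.3, 98.3 and 108 CPM with Apatinib and 84.5, 93.6 and 103 in the untreated libraries. The groups overlapped through Apatinib 2 and control 3. At 0.22, its log2FC was close to that of STAT3 (interval -0.06 to 0.50, edgeR FDR = 0.273). It lay between 0.14 and 0.29 when single libraries were left out. With the GC content offset it was 0.08, and that of STAT3 was 0.13.

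SOCS2 restrains growth hormone signalling through STAT5. It had 51.5, 70.7 and 52.8 CPM with Apatinib, from 885, 1253 and 923 counts, and 41.6, 43.1 and 38.5 CPM in the controls, from 721, 784 and 840 counts. Every Apatinib library was above every control, and Apatinib 2 was the highest. The mean rose from 41.1 ± 2.36 to 58.3 ± 10.7 CPM (n = 3 each), a log2FC of 0.51 (SE 0.146, interval 0.19 to 0.83, edgeR FDR = 0.0428). The value lay just past both limits of the call. With controls 1 and 2 summed as 1 sample it was 0.52 (edgeR FDR = 0.141), and with an offset for GC content it was 0.47 (edgeR FDR = 0.0306), past the FDR limit and below the fold limit. When single libraries were left out, the call held in 1 of 6 fits, the one without Apatinib 3 (edgeR FDR = 0.0450). The log2FC was 0.59 without Apatinib 1 (edgeR FDR = 0.0513), 0.35 without Apatinib 2 (0.0749), 0.51 without control 1 (0.157), 0.54 without control 2 (0.138) and 0.46 without control 3 (0.0725). Exons of SOCS2 share 277 bases with SOCS2-AS1 on the opposite strand (GENCODE 29), or 4.09% of the exon bases of SOCS2. The antisense gene was counted 240, 265 and 211 times with Apatinib and 131, 143 and 191 times in the controls. Whether strand was used in counting is not given in the sources used here, so reads from the shared bases cannot be assigned to one of the genes.

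SOCS3 binds gp130 and JAK kinases and is a classical target of STAT3. Its levels were 55.6, 79.5 and 47.1 CPM with Apatinib, from 956, 1409 and 822 counts, and 40.8, 38.1 and 44.8 CPM in the controls, from 706, 692 and 977 counts. The groups did not overlap, although Apatinib 3 and control 3 lay close together. The means were 60.7 ± 16.8 and 41.2 ± 3.37 CPM (n = 3 each), with a log2FC of 0.56 (SE 0.179, interval 0.17 to 0.95) and an FDR of 0.0605 in edgeR. It passed the test without Apatinib 3 (0.72, edgeR FDR = 0.0298) and without control 3 (0.63, edgeR FDR = 0.0452), and without Apatinib 2 the log2FC was 0.32. DESeq2, the tool named in the study's methods, called SOCS3 (adjusted p = 0.0227) together with SOCS2 (adjusted p = 0.0156). With the GC content offset the log2FC of SOCS3 was 0.39 (edgeR FDR = 0.161).

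SOCS1, a direct inhibitor of JAK kinases, had 16.4, 17 and 12.7 CPM with Apatinib and 13.1, 12.4 and 15.8 in the controls. Apatinib 3 was among the lowest libraries, and the groups overlapped. The log2FC was 0.16 (interval -0.21 to 0.53, edgeR FDR = 0.568). It was 0.28 without Apatinib 3, 0.27 without control 3, between 0.08 and 0.12 without any other single library, and -0.14 with the GC content offset. The differences of SOCS1 from SOCS2 and SOCS3 in response were not tested.

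**Figure D3:**
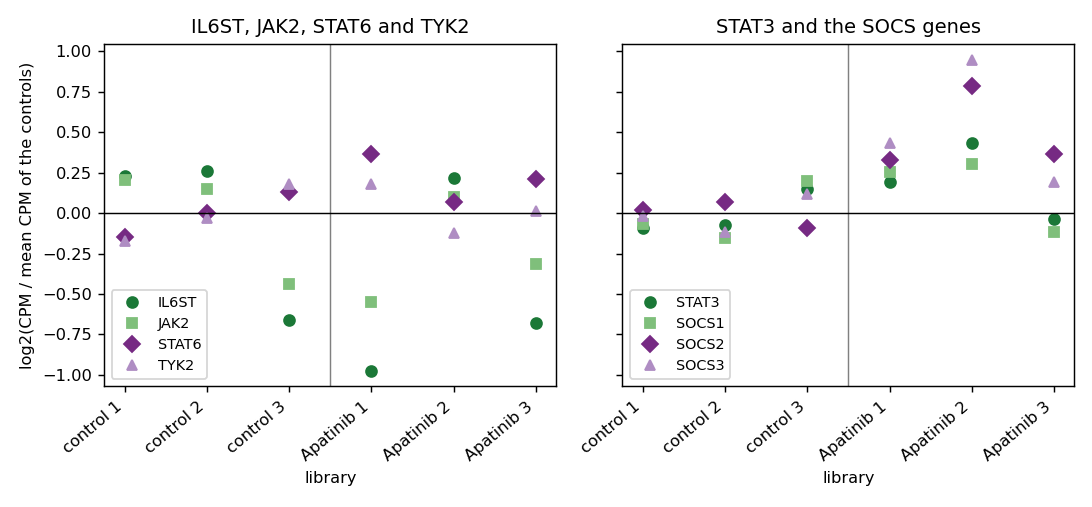
CPM of 8 of the 10 genes in each of the 6 libraries, as the log2 ratio to the mean of the 3 controls, with IL6ST, JAK2, STAT6 and TYK2 on the left and STAT3 and the SOCS genes on the right. IL6ST and JAK2 are high in controls 1 and 2 and Apatinib 2, and SOCS2, SOCS3 and STAT3 are highest in Apatinib 2.

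Across the 6 libraries the genes did not vary as 1 block. IL6ST and JAK2 ran side by side (Pearson's r of log2 CPM 0.99, n = 6), and both ran against TYK2 (-0.87 and -0.92) and STAT6 (-0.88 and -0.89). STAT3 ran with SOCS3 (0.93) and SOCS1 (0.93), and SOCS2 with SOCS3 (0.90). These values describe 6 libraries that share treatment groups, depth and the GC differences given above. The GC content was 36.6% in IL6ST and 39.2% in JAK2, and 61.3% in TYK2 and 56.1% in STAT6. Its part in these correlations was not tested. Of 10328 genes with a mean of at least 10 CPM, ZBTB46, SLC26A11 and CCDC130 followed STAT3 most closely over the 6 libraries (r from 0.99 to 1.00), and CDR2, SAMD4A and FAM129A followed SOCS2 most closely (r = 1.00 each after rounding).

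Around these genes, 79 other genes of the pathway were listed, and 67 passed the filter. The lists were chosen with earlier results of these data known, so their share of calls is no test of the pathway. Of the 67, 14 were called, against 11.5% of all genes tested, with 8 higher and 6 lower. With the GC content offset 10 were called, 7 higher and 3 lower, beside 1377 of all 15819 genes in that fit. With controls 1 and 2 summed 2 were called, both higher, beside 292 of all 16731 genes. The median log2FC of the 67 was 0.15. The FDR limit alone was met by 18 of the 67, against 12.9% of all genes. The groups did not overlap for 30 of the 67, against 33.2% of all genes, with 19 above and 11 below. Of the 14 calls, those of IL6R and IL21R held in every alternative that could be fitted for them. The other 12 were lost without control 1, where their FDR in edgeR lay between 0.0657 and 0.160, and without control 2, where it lay between 0.0542 and 0.17. Their direction was kept in both fits. Without control 1 and without control 2, the log2FC was 0.63 and 0.67 for CCND1, 0.79 and 0.75 for STAT5A, -0.90 and -0.89 for JAK3 and 1.34 and 1.24 for IL11, all near the values given below with every library.

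Among the 6 other STAT and JAK genes, 1 rose and 1 fell, against 5.97% and 5.48% of all genes. The median log2FC of the 6 was 0.36. STAT5A, a factor of growth hormone and prolactin signalling, had 45.4, 33.8 and 31.4 CPM with Apatinib and 20.6, 19.4 and 23.1 in the controls, a log2FC of 0.81 (edgeR FDR = 0.0128). Its paralog STAT5B reached 201, 174 and 182 CPM against 131, 128 and 145, with a log2FC of 0.47 (edgeR FDR = 0.0286) that stayed below the fold limit. STAT5B was called without Apatinib 2 (0.51) and without control 3 (0.52). It missed the FDR limit without Apatinib 1 (0.41, edgeR FDR = 0.0788), without control 1 (0.44, edgeR FDR = 0.150) and without control 2 (0.43, edgeR FDR = 0.161). The genes are near-identical in stretches, and how reads were split between them is uncertain. JAK3, the kinase of the common gamma chain, fell from 18.1, 18.1 and 18.7 CPM to 9.60, 12.8 and 7.44, a log2FC of -0.88 (edgeR FDR = 0.0164). Without Apatinib 1 it was -0.85 (edgeR FDR = 0.0514).

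Of the inhibitors, 1 of 5 other SOCS genes and 1 of 7 PIAS and phosphatase genes tested fell, against 5.48% of all genes. The medians were -0.26 and -0.34. SOCS4 fell from 64.6, 67.4 and 44.1 CPM to 27.9, 35.7 and 39.7, a log2FC of -0.77 (edgeR FDR = 0.0236). Without Apatinib 1 it was -0.63 (edgeR FDR = 0.0725). Control 3 again lay nearest to the Apatinib libraries. The change was -0.34 with the GC content offset, below the fold limit. SOCS5 and SOCS6 had log2FC values of -0.27 and -0.26 (edgeR FDR = 0.209 and 0.317), and ranged from -0.35 to -0.18 and from -0.42 to -0.16 when single libraries were left out. PIAS1, a SUMO ligase, fell from 54.4, 55.2 and 46.4 CPM to 33.7, 31.2 and 42.9 (log2FC -0.53, edgeR FDR = 0.0392). The log2FC of PIAS1 was -0.48 without Apatinib 1 (edgeR FDR = 0.108), -0.43 without Apatinib 2 (edgeR FDR = 0.0826) and -0.31 with the GC content offset (edgeR FDR = 0.0920). PTPN11, which encodes the phosphatase SHP2, had a log2FC of -0.48 (edgeR FDR = 0.0734). It was -0.70 and called without Apatinib 3 (edgeR FDR = 0.0159). Without Apatinib 1 it was -0.41 (edgeR FDR = 0.193), and without Apatinib 2 it was -0.35 (edgeR FDR = 0.164). PIAS2 had a log2FC of -0.38 (edgeR FDR = 0.10). With the GC content offset the values of PTPN11 and PIAS2 were -0.33 and -0.09.

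Most ligands of the family were scarce. IL6 had between 6 and 20 counts per library and OSM at most 1, so neither passed the filter. Of 6 ligands tested 1 rose, against 5.97% of all genes. IL11 had 3.78, 9.77 and 4.35 CPM with Apatinib and 3.12, 2.75 and 1.97 in the controls, a log2FC of 1.2 (edgeR FDR = 0.0454). Apatinib 2 stood apart, and without it the change was 0.66 (edgeR FDR = 0.105). The log2FC of IL11 was 1.03 without control 3 (edgeR FDR = 0.0720) and 1.07 with the GC content offset (edgeR FDR = 0.0832). CNTF and CTF1 had log2FC values of -1.12 and 0.55 (edgeR FDR = 0.0537 and 0.101), the latter 0.33 with the GC content offset.

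Of 6 receptor chains beside IL6ST and OSMR, 1 was called higher and 1 lower, against 5.97% and 5.48% of all genes. IL6R, which binds interleukin-6 itself, rose from 2.48, 1.81 and 1.28 CPM to 6.98, 4.97 and 5.21, from 43, 33 and 28 counts to 120, 88 and 91. The log2FC was 1.63 (SE 0.269, edgeR FDR = 0.00668), and between 1.41 and 1.88 when single libraries were left out. LIFR, the partner of gp130 for leukemia inhibitory factor, was an abundant transcript that fell from 1724, 1754 and 1108 CPM to 631, 999.9 and 854, a log2FC of -0.88 (edgeR FDR = 0.0209). Control 3 was the lowest control and Apatinib 2 the highest treated library. It was -0.72 without Apatinib 1 (edgeR FDR = 0.0578) and -0.48 with the GC content offset, below the fold limit. The GC content of LIFR was 36.2%. IL11RA had a log2FC of 0.43 (edgeR FDR = 0.146), and of 0.29 with the GC content offset.

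Of 15 other JAK-coupled receptors tested 3 rose, against 5.97% of all genes. The median log2FC of the 15 was 0.18, and that of all genes tested was 0.00. IL21R, the interleukin-21 receptor, was counted 33, 50 and 30 times with Apatinib and 5, 7 and 9 times in the controls, a log2FC of 2.54 (edgeR FDR = 0.00423). EPOR, the erythropoietin receptor, reached 47.3, 32.3 and 41.3 CPM against 20.4, 22.4 and 25.7 (log2FC 0.82, edgeR FDR = 0.0123). IL15RA had 14.4, 20.2 and 12 CPM against 8.83, 10.1 and 9.57 (0.71, edgeR FDR = 0.0395). The call of IL15RA was lost without Apatinib 1, where the log2FC was 0.76 (edgeR FDR = 0.0691), without Apatinib 2, where it was 0.48 and below the fold limit (edgeR FDR = 0.0740), and with the GC content offset, where it was 0.55 (edgeR FDR = 0.0832).

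Among 22 genes tested that are known as STAT3 targets in other cells, 2 rose and 2 fell, and the median log2FC was 0.33. CCND1, the G1 cyclin D1, rose from 338, 357 and 343 CPM to 544, 586 and 504, a log2FC of 0.65 (edgeR FDR = 0.00847). CEBPD, a transcription factor of the acute phase response, had 39.4, 57.2 and 29.1 CPM with Apatinib and 22.6, 25.1 and 25.2 in the controls (0.79, edgeR FDR = 0.0330). The log2FC of CEBPD was 0.83 without Apatinib 1 (edgeR FDR = 0.0632), 0.50 without Apatinib 2 (edgeR FDR = 0.0591), and 0.48 with the GC content offset (edgeR FDR = 0.149). BIRC5, the apoptosis inhibitor survivin, fell from 42.2, 45.9 and 51.1 CPM to 37.2, 21.8 and 32.2 (log2FC -0.61, edgeR FDR = 0.0477), and kept its call in 1 of the 6 fits without a library, the one without Apatinib 1. The log2FC of BIRC5 was -0.42 without Apatinib 2 (edgeR FDR = 0.0718), below the fold limit, -0.65 without Apatinib 3 (edgeR FDR = 0.0760) and -0.53 without control 3 (edgeR FDR = 0.0763). MMP9, a matrix protease, fell from 5.77, 4.62 and 4.81 CPM to 3.02, 1.69 and 2.75 (log2FC -1.02, edgeR FDR = 0.0244). Of all genes tested, 5.97% were called as higher and 5.48% as lower. The FDR limit alone was met by 6 of the 22, against 12.9% of all genes. They were the 4 called genes and PIM1 and MMP2, which were both higher (log2FC 0.48 and 0.45, edgeR FDR = 0.0460 and 0.0428). CD274, which encodes PD-L1, was chosen after its values were seen, because its protein was blotted in the study. It had 2.68, 8.92 and 4.92 CPM with Apatinib and 4.73, 3.30 and 2.66 in the controls, and a log2FC of 0.64 (interval -0.18 to 1.46) did not pass the test (edgeR FDR = 0.275). The value was 0.11 without Apatinib 2 and 0.97 without Apatinib 1. The paper reports less PD-L1 protein in blots of cells given Apatinib, and no significant difference among its xenograft groups. Those are measures of protein, and mRNA was not compared with protein here.

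**Figure D4:**
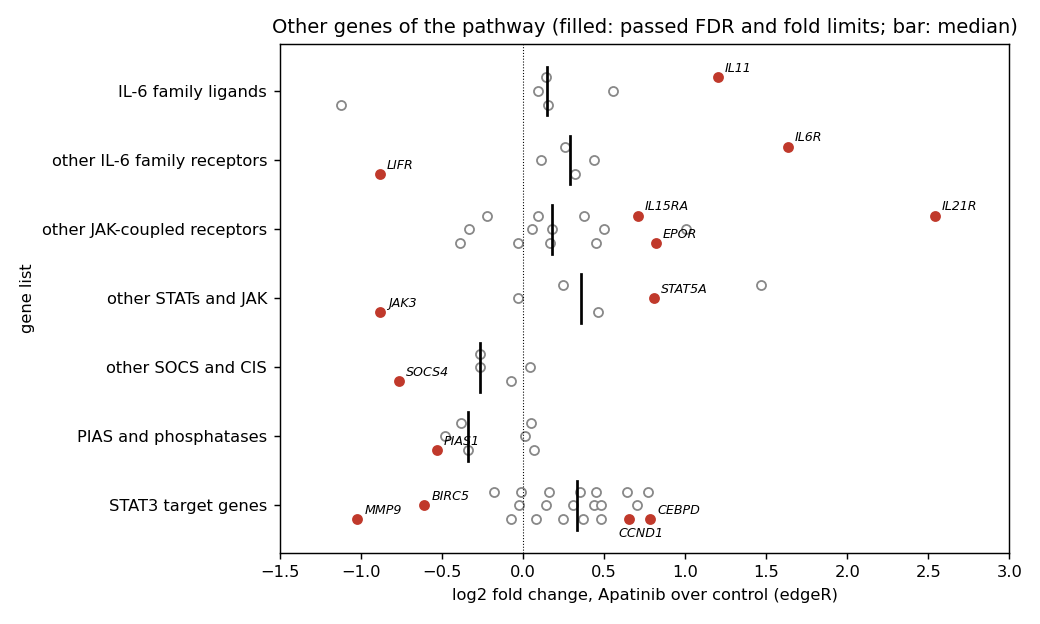
Log2FC, Apatinib minus control, of the tested genes of the 7 other pathway lists, 1 point per gene, with called genes named. Genes on both sides of 0 are called, 8 higher and 6 lower, and IL21R and IL6R lie farthest to the right among them.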

How the data were processed

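RNA of 3 Apatinib-treated and 3 untreated SW872 samples, biological replicates according to the study's methods, was sequenced. The authors deposited whole-number counts per gene, not normalized, and FPKM values per library. The submitters' processing notes name CASAVA, STAR 2.7.1a and hg19. The counting program, its annotation and its use of strand are not given in the sources used here. Gene symbols are those of the deposited table. A column inside the FPKM values of Apatinib 1 that carries a control's label was not used (1 column). Samples were grouped by their labels.

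The count table was tested with edgeR 4.0.16 in R 4.3.3 (filterByExpr, TMM, quasi-likelihood F test, no covariates, Benjamini-Hochberg over the 16290 genes tested). Calls needed an FDR under 0.05 and an absolute log2FC over 0.5. TMM factors also scaled the CPM values, and log2 CPM was taken with a prior count of 2. The biological coefficient of variation was 0.149, and total counts per sample were 17043314 to 22067558. FPKM served for levels between genes and, in limma 3.58.1, as log2(FPKM + 1) and log2(FPKM + 0.1) for genes with a mean FPKM above 0.5. Other alternatives were DESeq2 1.42.0, its size factors in edgeR, other filters, the replicate number as a block, controls 1 and 2 summed, and each library left out. An offset for GC content, fitted by loess (span 0.3) in each library for the 97.1% of tested genes with a known GC content, was added after seeing the data. Some of the fits were tested on simulated data, with independent replicates and larger changes than those of SOCS2 and SOCS3. The simulation thus does not vouch for calls near the limits.

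The 10 genes and the pathway lists were chosen with earlier results of these data known. All 10 are named, with every called gene of a list and, where fewer than 3 were called, the genes with the smallest p up to 3. PIM1, MMP2 and CD274 are named besides. Intervals are 95% confidence intervals of the log2FC from edgeR's fit, whose estimate of variation between samples borrows from other genes. The marker PECAM1 was not analysed here. Replicates with the same number in both groups did not deviate together (correlations -0.26, 0.08 and -0.22), and nothing else pairs them.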

Additional observations from a re-analysis of the deposited data

How the results depend on the processing

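STAT3, STAT6, JAK1, SOCS2 and SOCS3 kept their direction in all 15 alternatives. Of the 10 genes (1 called), 2 were called by DESeq2 and 2 without a filter on low counts, and 0 with controls 1 and 2 summed, with limma on either FPKM scale and with the GC content offset. The log2FC of SOCS2 was 0.52 with controls summed, 0.47 and 0.50 in limma and 0.47 with the offset. Leaving out single libraries called 0 to 2. Over all genes the 1866 calls became 292 with controls 1 and 2 summed, and 796 and 810 in limma with pseudocounts of 1 and 0.1. They ranged from 275 (without control 1) to 2594 when a library was left out, with 300 without control 2 and 795 without Apatinib 1. The 14 other pathway calls became 2 with controls summed and 7 on either FPKM scale, and 2 to 20 without a library. With the replicate number as a block, 2215 genes, 17 pathway genes and 1 of the 10 were called. That 1 was SOCS3 (0.53, edgeR FDR = 0.0421), and SOCS2 was not called (0.49, edgeR FDR = 0.0601). The log2 fold change changed sign with the GC content offset for JAK2 (0.0754), TYK2 (-0.16), SOCS1 (-0.14), IL6ST (0.0211), OSMR (0.00717), SOCS5 (0.0842) and SOCS6 (0.0820). It also changed sign for TYK2 with controls summed (-0.0228), without Apatinib 1 (-0.05) and without control 1 (-0.0557, range -0.06 to 0.13), and for OSMR without Apatinib 1 or 3 (0.11 each, range -0.28 to 0.11). None of these genes was called by edgeR. The causes were not tested. On the log2(FPKM + 1) scale, which understates low genes, the values were 0.57 for IL6R, 0.81 for IL21R, 0.58 for IL11, -0.63 for MMP9 and 0.25 for CD274. Scaling by DESeq2's size factors left 14 pathway calls and 1 of the 10.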
